A study of Mus musculus with 4 samples.

Results

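The genes described here encode the nucleolar machinery that makes ribosomes. They were chosen by symbol, as 50 named genes of 6 roles, and all 50 were found among the 23339 named genes of the deposited tables, each with an FPKM of at least 1 in all 4 libraries. FPKM counts the fragments of a gene relative to its transcript length and to all mapped fragments of the library, so that an equal change of all RNA in a cell would not show in it.

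RNA was sequenced from splenic CD4+ T cells of mice with the genotype *Cic* f/f; *Cd4*-Cre (cKO) and of *Cic* f/f mice (WT). *Cic* encodes a transcriptional repressor. In cKO mice a Cre transgene driven by the *Cd4* promoter cuts out the loxP-flanked stretch of *Cic* in T cells, and in WT mice both loxP-flanked alleles stay intact. All mice were C57BL/6J and 10 to 12 weeks old by the labels. Each genotype gave 1 library on day 3 of stimulation by antibodies to CD3 and CD28 coated on the plate, at 2 μg/ml each, and 1 library of unstimulated naïve cells on day 0. The labels describe the naïve gate as CD44hi CD62Llo and the study's methods as CD44lo CD62Lhi, and neither could be checked against the other.

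With 1 library per condition no difference has a replicate check, no test was possible, and every ratio below compares these libraries. A gene is said to have risen or fallen where its log2 ratio, computed after adding 0.1 to each FPKM, passed 1.5 in either direction, and other differences are given as values. The files hold no read counts. Among loci below 1 FPKM, the most frequent ratio of cKO to WT values was 0.95 on day 3 and 0.82 on day 0, which gives the relative worth of 1 read and not the depth. The 7 T-cell markers examined (summed FPKM 898 and 1050 in cKO on day 3 and day 0, and 766 and 840 in WT) were above 0 in every library. Among them *Cd4* was higher in cKO, with 174 FPKM against 86.3 in WT on day 3 and 242 against 135 on day 0. The median log2 ratio of cKO to WT over the 7 was 0.15 on day 3, with 2 below 0, and 0.20 on day 0, with 1 below 0. *Cic* had 12.2 FPKM in cKO cells and 17.8 FPKM in WT cells on day 3. Its day 0 values were 24.9 FPKM in cKO cells and 25.4 FPKM in WT cells. These values cover the whole gene and not the floxed part alone, so it does not check the deletion.

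Ribosome synthesis starts in the nucleolus, where RNA polymerase I transcribes a long precursor of the ribosomal RNAs. Small nucleolar RNAs in protein complexes (snoRNPs) guide its methylation and pseudouridylation, the small subunit (SSU) processome folds and cuts the part that becomes the small 40S subunit, and other factors build the large 60S subunit. A naïve T cell is small and makes little protein, and enlargement of the nucleolus is a classic sign of its activation. The transcription factor MYC, which is induced by T-cell receptor signals, is known to bind the E-box CACGTG at many genes of this machinery, and CIC is known to bind sites that share the letters TGAATG.

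The sequence before the start of each gene was therefore examined in the RefSeq promoter windows of build GRCm38.p6, which held 44 of the 50 genes. The 250 bases before the start are shown for the gene with the highest ratio of day 3 to day 0 in WT cells in 5 of the 6 roles (*Npm1*, which led the sixth, is not in this table), with any CACGTG, and any TGAATG on either strand, in capitals and all other bases in lower case.
Polr1c (chr17:46248046-46248295, minus strand): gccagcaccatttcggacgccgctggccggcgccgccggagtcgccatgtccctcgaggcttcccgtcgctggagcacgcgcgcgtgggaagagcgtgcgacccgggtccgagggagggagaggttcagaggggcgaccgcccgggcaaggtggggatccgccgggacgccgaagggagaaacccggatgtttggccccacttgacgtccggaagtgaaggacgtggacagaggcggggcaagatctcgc
Gar1 (chr3:129831397-129831646, minus strand): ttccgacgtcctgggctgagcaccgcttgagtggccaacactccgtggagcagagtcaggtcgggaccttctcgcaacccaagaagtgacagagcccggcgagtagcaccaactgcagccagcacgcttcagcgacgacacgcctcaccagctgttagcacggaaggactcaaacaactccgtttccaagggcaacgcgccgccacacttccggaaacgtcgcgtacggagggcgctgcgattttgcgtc
Noc4l (chr5:110653383-110653632, minus strand): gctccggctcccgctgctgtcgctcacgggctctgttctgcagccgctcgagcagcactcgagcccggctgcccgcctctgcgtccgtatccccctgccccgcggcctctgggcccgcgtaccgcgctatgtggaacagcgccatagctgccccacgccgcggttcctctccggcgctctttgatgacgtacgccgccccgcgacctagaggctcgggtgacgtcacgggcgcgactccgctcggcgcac
Pno1 (chr11:17211590-17211839, minus strand): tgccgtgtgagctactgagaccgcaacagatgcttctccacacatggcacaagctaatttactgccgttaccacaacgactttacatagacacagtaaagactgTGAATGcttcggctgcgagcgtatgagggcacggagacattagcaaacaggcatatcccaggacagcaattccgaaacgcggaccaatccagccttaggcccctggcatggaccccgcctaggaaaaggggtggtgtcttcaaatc
Ebna1bp2 (chr4:118620549-118620798, plus strand): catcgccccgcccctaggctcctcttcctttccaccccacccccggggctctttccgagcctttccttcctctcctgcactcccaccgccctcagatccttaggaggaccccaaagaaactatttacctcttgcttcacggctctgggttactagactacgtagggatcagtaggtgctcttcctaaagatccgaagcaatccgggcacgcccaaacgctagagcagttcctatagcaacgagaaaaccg
These 5 promoters held between 52.4% and 72.4% G and C, and the median over the 44 genes was 58.0%, against 59.6% over the 8434 genes with a promoter that were measured in WT cells. The only letters in capitals among them are a TGAATG in *Pno1*, and none of the 5 held a CACGTG in these 250 bases.

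In the 250 bases before the start, CACGTG (a palindrome, so that both strands read alike) was found in 3 of the 44 genes, or 6.82%, and in 10.0% of the measured genes and 6.86% of all 27025 genes of the table. When the window was taken to 50 bases past the start, a choice made after the first result was seen, 11 of the 44 genes (25%) held it, against 11.9% of the measured genes and 8.09% of all genes. Of 78 other ribosome biogenesis genes with a promoter, 14 (17.9%) held it in the longer window, and of the mitochondrial ribosomal protein genes 7.81%. The difference between the windows lay in the first 50 transcribed bases. The stretches that carry it are printed with up to 10 bases on either side and the E-box in capitals.
Grwd1 (chr7:45830740-45830765, minus strand, motif from base 35 after the start): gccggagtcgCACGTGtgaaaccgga
Ltv1 (chr10:13193094-13193119, minus strand, motif from base 29 after the start): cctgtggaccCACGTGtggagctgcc
Mybbp1a (chr11:72441357-72441376, plus strand, motif from base 41 after the start): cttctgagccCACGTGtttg
Nop2 (chr6:125131813-125131838, plus strand, motif from base 60 before the start): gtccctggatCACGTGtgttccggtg
Pes1 (chr11:3963967-3963992, plus strand, motif from base 3 after the start): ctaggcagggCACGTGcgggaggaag
Pno1 (chr11:17211540-17211562, minus strand, motif from base 38 after the start): tacaaccacgCACGTGttcctct
Rrn3 (chr16:13780474-13780499, plus strand, motif from base 215 before the start): gcgccaaggtCACGTGcacacgcctc
Rrn3 (chr16:13780641-13780666, plus strand, motif from base 48 before the start): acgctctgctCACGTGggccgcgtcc
Tsr1 (chr11:74898094-74898119, plus strand, motif from base 25 after the start): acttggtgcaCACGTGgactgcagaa
Utp18 (chr11:93885771-93885796, minus strand, motif from base 20 before the start): gagcgccggtCACGTGgcttgcggcg
Utp20 (chr10:88826765-88826787, minus strand, motif from base 38 after the start): gcactaactaCACGTGaggaaaa
Wdr43 (chr17:71616222-71616247, plus strand, motif from base 18 after the start): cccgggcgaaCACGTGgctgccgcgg
*Rrn3* held a pair of E-boxes before its start, and in 8 genes the E-box followed the start. The 11 genes with an E-box had a median log2 ratio of day 3 to day 0 of 1.24 in cKO and 1.37 in WT, and the 33 genes without it 1.21 in cKO and 1.30 in WT, so the 2 sets lay at nearly the same level. TGAATG, read on both strands, was in the 250 bases before the start of 8 of the 44 genes (18.2%), namely *Ncl*, *Nolc1*, *Nop10*, *Nop16*, *Nop56*, *Pno1*, *Polr1b* and *Rrp1b*, against 8.44% of the measured genes and 12.4% of all genes. In the same window 8 of the 78 other ribosome biogenesis genes (10.3%) held TGAATG. The shares were 4.76% of the cytosolic and 7.81% of the mitochondrial ribosomal protein genes. A match of so few letters is a description of the window and does not show binding.

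The first comparison asked how the machinery differed between stimulated and naïve cells. On day 3, 19 of the 50 genes had risen in cKO and 21 in WT, 18 of them in both, and none had fallen in either genotype. Over all genes, 17.3% rose in cKO (of 11232 measured) and 19.0% in WT (of 11440), so the shares here, 38.0% in cKO and 42.0% in WT, were higher, while 6.96% of all genes fell in cKO and 8.84% in WT. The median log2 ratio was 1.23 in cKO and 1.35 in WT, against 0.36 and 0.40 over all genes. Apart from *Nop56* in both genotypes and *Nol6* in cKO, every gene had a ratio above 0, which 63.7% of all genes did in cKO and 63.5% in WT. The FPKM fold change had a median of 2.37 in cKO and 2.60 in WT over the 49 genes without *Nop56*, and reached 7.76 in cKO and 6.77 in WT. Markers of other cells also differed between the days. The 6 macrophage and monocyte markers summed to 63.0 FPKM on day 0 and 2.7 on day 3 in cKO. In WT these markers summed to 197 on day 0 and 3.2 on day 3. The part of this difference in the ratios of the 50 genes was not tested.

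**Figure D1:**
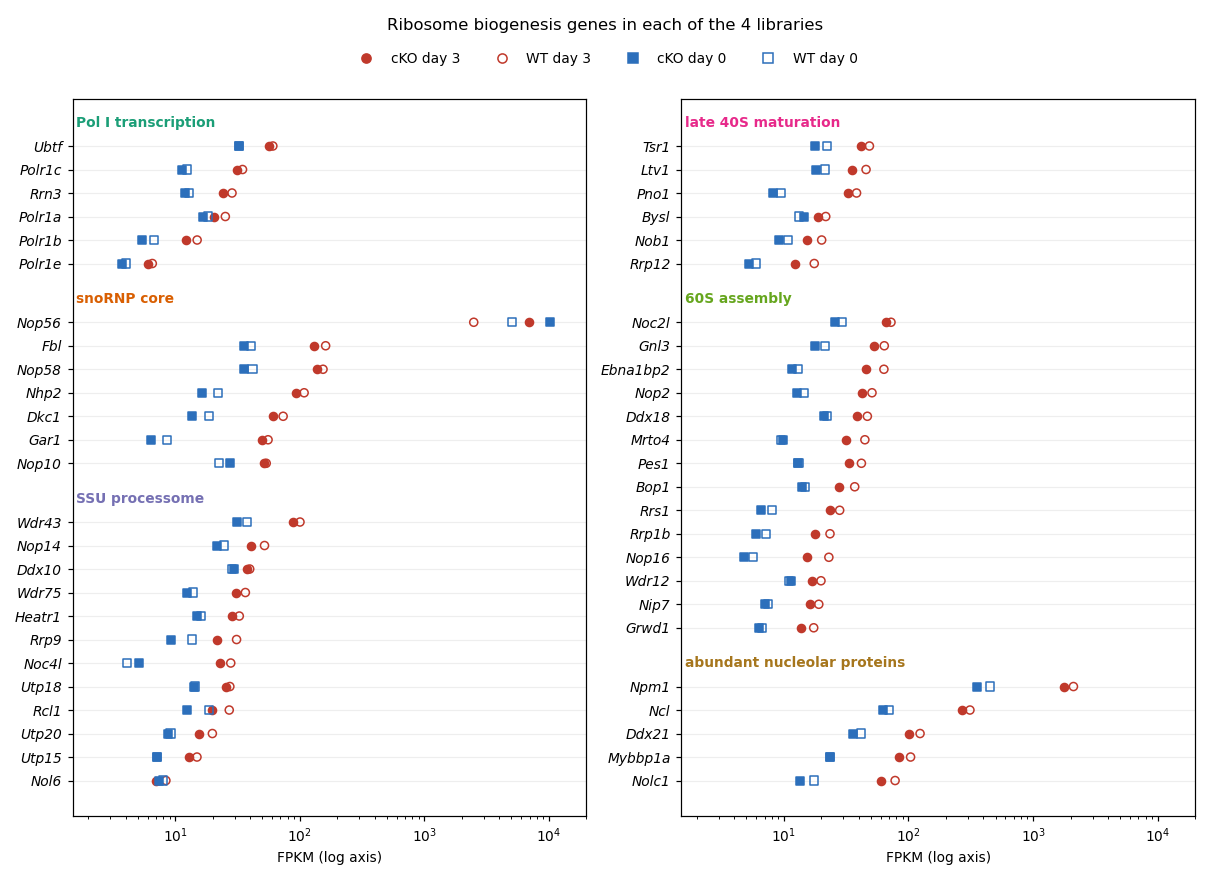
FPKM of each of the 50 genes (log axis) in cKO day 3 (filled circle), WT day 3 (open circle), cKO day 0 (filled square) and WT day 0 (open square), grouped by role and ordered by the WT day 3 level. Circles lie to the right of squares for nearly all genes, and only *Nop56*, at 2491 to 10150 FPKM, lies above *Npm1* in every library and has its circles to the left of its squares within each genotype.

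The roles did not move alike. The abundant nucleolar proteins came highest, with medians of 2.1 in cKO and 2.15 in WT, and the snoRNP core proteins next, with 1.94 in cKO and 1.96 in WT (2.06 in cKO and 1.97 in WT without *Nop56*). The 14 factors of 60S assembly had medians of 1.46 in cKO and 1.62 in WT. Late 40S maturation (1.08 in cKO and 1.11 in WT), RNA polymerase I transcription (0.90 in cKO and 1.01 in WT) and the SSU processome (0.87 in cKO and 1.08 in WT) were lower. Without replicates no order among any of the groups can be set, and these medians rank only the values of these libraries.

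*Npm1*, nucleophosmin, is a histone and ribosomal protein chaperone that forms the outer layer of the nucleolus (chr11:33152498-33163206, coordinates of the deposited locus). It had 1775 FPKM on day 3 and 355 on day 0 in cKO, and 2109 on day 3 and 453 on day 0 in WT. *Npm1* alone made up 45.4% of the summed FPKM of the 49 genes other than *Nop56* on day 3 in cKO and 45.2% in WT, and 31.6% on day 0 in cKO and 34.6% in WT. *Ncl*, nucleolin, which binds the ribosomal RNA precursor, had 268 FPKM on day 3 and 62.7 on day 0 in cKO, and 311 on day 3 and 70.0 on day 0 in WT. *Nolc1* encodes a chaperone of snoRNPs. Its level was 60.5 on day 3 and 13.5 on day 0 in cKO, and 78.1 on day 3 and 17.4 on day 0 in WT. The smallest ratio of the group belonged to *Ddx21*, an RNA helicase of polymerase I transcription and processing, with 101 FPKM on day 3 and 35.8 on day 0 in cKO (log2 ratio 1.49) and 124 on day 3 and 41.8 on day 0 in WT (1.57). It was the only 1 of the 5 that did not pass 1.5 in cKO.

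Among snoRNP core proteins, the 4 partners of the H/ACA complexes, which make pseudouridine, gave both a high and a low value. *Gar1* (chr3:129824822-129831396) had 49.3 FPKM on day 3 and 6.35 on day 0 in cKO, and 55.6 on day 3 and 8.64 on day 0 in WT, log2 ratios of 2.94 in cKO and 2.67 in WT. It had the highest ratio of the 50 genes in cKO and the second highest in WT. *Nhp2* had 93.6 FPKM on day 3 and 16.4 on day 0 in cKO, and 108 on day 3 and 22.0 on day 0 in WT. *Dkc1*, the pseudouridine synthase dyskerin, had 61.4 on day 3 and 13.6 on day 0 in cKO, and 73.5 on day 3 and 18.8 on day 0 in WT. The fourth partner, *Nop10*, had 51.4 on day 3 and 27.3 on day 0 in cKO (0.91), and 53.8 on day 3 and 22.6 on day 0 in WT (1.25), so that 3 partners rose in both genotypes and *Nop10* in neither. On day 0, *Nop10* was the most abundant of the 4 in both genotypes, and on day 3 it was below *Nhp2* and *Dkc1*.

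The box C/D complexes, which methylate ribosomal RNA, contain *Fbl*, *Nop58* and *Nop56*. *Fbl*, the methyltransferase fibrillarin, had 130 FPKM on day 3 and 35.7 on day 0 in cKO, and 161 on day 3 and 40.9 on day 0 in WT. *Nop58* had nearly the same levels, 136 on day 3 and 35.4 on day 0 in cKO and 154 on day 3 and 41.7 on day 0 in WT. Both rose in both genotypes. The row of *Nop56* (chr2:130274412-130284451) stood apart, with 6966 FPKM on day 3 and 10150 on day 0 in cKO, and 2491 on day 3 and 5034 on day 0 in WT. Its log2 ratio of day 3 to day 0 was -0.54 in cKO and -1.02 in WT, the lowest of the 50 in each, and its level was between 1.18 and 28.6 times that of *Npm1*.

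*Nop56* is 1 of 7 genes whose RefSeq span holds small nucleolar RNAs, and RefSeq places 5 of them inside it, none of which has a row of its own in the tables. The others are *Nop58* with 4, *Wdr43* and *Gnl3* with 3 each, *Ncl* with 2, and *Dkc1* and *Tsr1* with 1 each. In *Ncl*, the row of *Snord82* had 5268 FPKM on day 3 and 6497 on day 0 in cKO, and 3354 on day 3 and 6197 on day 0 in WT. Like the *Nop56* row, *Snord82* was lower on day 3 than on day 0 in both genotypes, while *Ncl* was higher on day 3. On day 3 the log2 ratio of cKO to WT was 1.48 for *Nop56*, and *Snord82* was also higher in cKO, at 5268 against 3354 in WT. On day 0 the log2 ratio of cKO to WT was 1.01 for *Nop56*, whereas *Snord82* had 6497 in cKO and 6197 in WT. The other small nucleolar RNA rows with any signal, given next, were not lower on day 3 than on day 0. *Snora75*, also in *Ncl*, had 300 on day 3 and 156 on day 0 in cKO, and 168 on day 3 and 145 on day 0 in WT. *Snord70* in *Nop58* was listed at 1346 in cKO on day 3 and at 0 elsewhere, *Snord69* in *Gnl3* on day 3 at 2720 in cKO and 466 in WT and on day 0 at 0, and *Snord92* in *Wdr43* at 73.0 in WT on day 3 and at 0 elsewhere. *Snord11*, *Snord53* and *Snord19* were listed at 0 in all 4 libraries. FPKM divides by length, which is very small for these RNAs. How far intronic small RNA enters the *Nop56* value was not tested, and medians are therefore given without it where it matters.

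The SSU processome held both the strongest riser in WT and the flattest gene. *Noc4l*, which in yeast works with Nop14 in the maturation of the small subunit, had 23.0 FPKM on day 3 and 5.12 on day 0 in cKO, and 27.9 on day 3 and 4.12 on day 0 in WT (chr5:110648419-110653382). Its log2 ratios were 2.14 in cKO and 2.73 in WT. *Wdr43* and *Wdr75* belong to the part of the processome that joins the nascent transcript first. *Wdr43* had 88.9 on day 3 and 31.2 on day 0 in cKO, and 100 on day 3 and 37.9 on day 0 in WT, while *Wdr75* had 30.8 on day 3 and 12.5 on day 0 in cKO, and 36.6 on day 3 and 13.8 on day 0 in WT. *Wdr43* passed 1.5 in cKO (1.51) and not in WT (1.40). *Nol6*, whose yeast counterpart is Utp22, had 7.04 on day 3 and 7.46 on day 0 in cKO, and 8.42 on day 3 and 7.97 on day 0 in WT. Its log2 ratios, -0.08 in cKO and 0.08 in WT, were the closest to 0 of all 50. The helicase gene *Ddx10* was also nearly level, with 38.0 on day 3 and 29.7 on day 0 in cKO and 39.6 on day 3 and 28.3 on day 0 in WT. The other 7 genes of the group had log2 ratios between 0.66 and 1.21 in cKO and between 0.54 and 1.19 in WT.

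None of the 6 genes of RNA polymerase I transcription rose. The closest was *Polr1c*, a subunit shared with RNA polymerase III, with 31.4 FPKM on day 3 and 11.2 on day 0 in cKO (1.47), and 34.7 on day 3 and 12.5 on day 0 in WT (1.46). *Polr1b*, the second largest subunit, had 12.2 on day 3 and 5.41 on day 0 in cKO, and 15.0 on day 3 and 6.78 on day 0 in WT. *Rrn3* encodes the factor that makes the polymerase competent to start. It had 24.3 on day 3 and 11.9 on day 0 in cKO, and 28.6 on day 3 and 13.0 on day 0 in WT. *Polr1a*, the largest and catalytic subunit, changed least, with 20.4 on day 3 and 16.6 on day 0 in cKO (0.30) and 25.3 on day 3 and 18.5 on day 0 in WT (0.45). Subunits of 1 enzyme thus had FPKM folds between 1.23 (*Polr1a*) and 2.79 (*Polr1c*) in cKO and between 1.37 (*Polr1a*) and 2.77 (*Polr1c*) in WT. *Ubtf*, the factor that holds active ribosomal DNA open, had 56.5 on day 3 and 32.8 on day 0 in cKO, and 60.8 on day 3 and 32.7 on day 0 in WT. *Polr1e* was the lowest of the 50 in level, with 6.02 on day 3 and 3.73 on day 0 in cKO, and 6.55 on day 3 and 4.02 on day 0 in WT.

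In late 40S maturation, *Pno1* and *Nob1* act side by side, since Pno1 covers the site on the immature small subunit that the endonuclease Nob1 cuts last. *Pno1* had 32.8 FPKM on day 3 and 8.24 on day 0 in cKO, and 38.3 on day 3 and 9.44 on day 0 in WT. It rose in both genotypes (1.98 in cKO and 2.01 in WT), whereas the log2 ratio of *Nob1* was 0.73 in cKO and 0.88 in WT. *Rrp12*, needed for export of both subunits in yeast, had 12.2 on day 3 and 5.25 on day 0 in cKO, and 17.5 on day 3 and 5.97 on day 0 in WT, so that it passed 1.5 in WT (1.54) and not in cKO (1.20). *Tsr1* had 41.9 on day 3 and 17.6 on day 0 in cKO, and 48.6 on day 3 and 22.3 on day 0 in WT. *Bysl*, whose yeast counterpart is Enp1, had the smallest ratio of the group, with 18.9 on day 3 and 14.5 on day 0 in cKO and 21.7 on day 3 and 13.2 on day 0 in WT.

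Of the 14 genes of 60S assembly, 7 rose in cKO and 8 in WT. *Ebna1bp2*, whose yeast counterpart is Ebp2, had 45.7 FPKM on day 3 and 11.5 on day 0 in cKO, and 63.5 on day 3 and 13.0 on day 0 in WT. *Mrto4*, a relative of the stalk protein P0 that holds its place in the immature subunit, had 31.2 on day 3 and 9.80 on day 0 in cKO, and 44.7 on day 3 and 9.44 on day 0 in WT. *Nop16* had 15.2 on day 3 and 4.75 on day 0 in cKO, and 22.9 on day 3 and 5.64 on day 0 in WT. The PeBoW complex, which processes the 5.8S and 28S RNAs, joins *Pes1*, *Bop1* and *Wdr12*, and its 3 genes had different ratios. *Pes1* had 33.2 on day 3 and 13.0 on day 0 in cKO (1.34), and 41.9 on day 3 and 13.1 on day 0 in WT (1.67). *Bop1* had 27.7 on day 3 and 14.1 on day 0 in cKO (0.97), and 37.0 on day 3 and 14.7 on day 0 in WT (1.32). *Wdr12* had the smallest ratio of the whole group, with 16.8 on day 3 and 11.3 on day 0 in cKO (0.56) and 19.8 on day 3 and 10.9 on day 0 in WT (0.85). *Gnl3*, the nucleolar GTPase nucleostemin, had 53.1 on day 3 and 17.8 on day 0 in cKO, and 63.9 on day 3 and 21.5 on day 0 in WT, the same fold of 2.98 in each genotype. *Noc2l* had 66.3 on day 3 and 25.6 on day 0 in cKO, and 72.4 on day 3 and 29.2 on day 0 in WT.

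In 14 of the 50 genes another named gene has a row on the same deposited locus, so that fragments could be shared. Besides the small RNAs named above, the partners were *Idh3b* for *Nop56*, *Fbxo10* for *Polr1e*, *Mpp1* for *Dkc1*, *Rmnd5b* for *Nhp2*, *Srr* for *Tsr1*, *Ccnd3* for *Bysl*, *Carf* for *Wdr12*, *Samd11* for *Noc2l*, *Glt8d1* and *Spcs1* for *Gnl3*, and *Mroh1*, *Scx* and *Mir6954* for *Bop1*. *Mir101b* lies with *Rcl1* and *Mir3535* with *Ncl*. Of the 36 genes alone on their locus, 13 rose in cKO and 16 in WT, with medians of 1.21 in cKO and 1.38 in WT.

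The second comparison asked whether the loss of *Cic* went with another level of this machinery. On day 3, 49 of the 50 genes were lower in cKO than in WT, whereas 57.7% of the 10895 measured genes were. The differences were small. None passed 1.5 in either direction, as 0.743% of all genes did upward and 1.21% downward, and the median log2 ratio of cKO to WT was -0.26, against -0.05 over all genes. In FPKM, the median gene was 16.5% lower in cKO. The single exception was *Nop56*, at 1.48. The other 49 genes spread between -0.59 and -0.06, so that none of them was higher in cKO, and their medians by role lay between -0.31 (60S assembly) and -0.19 (RNA polymerase I transcription, and the snoRNP core without *Nop56*).

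The lowest ratios on day 3 were those of *Nop16* (-0.59), *Rrp12* (-0.52), *Mrto4* (-0.51), *Rrp9* (-0.51) and *Ebna1bp2* (-0.47). The FPKM of *Nop16* was thus 33.5% lower in cKO. *Rrp9*, a protein of the U3 snoRNP that guides the first cuts, had 21.7 FPKM on day 3 and 9.31 on day 0 in cKO, and 31.1 on day 3 and 13.5 on day 0 in WT. The ratios nearest to 0 were those of *Ddx10* (-0.06), *Nop10* (-0.07), *Utp18* (-0.10) and *Ubtf* (-0.11). *Utp18*, a scaffold protein of the processome, had 25.6 on day 3 and 14.2 on day 0 in cKO, and 27.5 on day 3 and 14.4 on day 0 in WT.

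On day 0, 41 of the 50 genes were lower in cKO, against 49.7% of 10910 measured genes. The median log2 ratio was -0.16, against 0.00 over all genes, and in FPKM the median gene was 10.8% lower. None passed 1.5, as 0.486% of all genes did upward and 1.81% downward. The 5 lowest genes were *Rcl1* (-0.59), *Rrp9* (-0.53), *Dkc1* (-0.46), *Gar1* (-0.44) and *Nhp2* (-0.42), so that 3 of the 4 H/ACA partners were among them. *Rcl1*, a processome protein related to RNA cyclases, had 19.6 FPKM on day 3 and 12.4 on day 0 in cKO, and 27.1 on day 3 and 18.7 on day 0 in WT. *Rcl1* and *Rrp9* were thus low in cKO on both days. Above 0 stood *Nop56* (1.01), *Noc4l* (0.31), *Nop10* (0.27), *Bysl* (0.13), *Ddx10* (0.07), *Mrto4* (0.05) and *Wdr12* (0.05), while *Ubtf* and *Utp15* were at 0.00.

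Across the 49 genes without *Nop56*, the ratios of cKO to WT on day 3 and day 0 were only loosely alike (Pearson's r = 0.30, Spearman's rho = 0.23), as a description over genes that share the same 4 libraries. Including *Nop56* gave r = 0.71 and rho = 0.28, so that the higher r rests on that row. All 41 genes that were lower in cKO on day 0 were lower on day 3 as well. This overlap had to be complete, because only *Nop56* was higher in cKO on day 3, and it was also higher on day 0. The overlap therefore does not show that the days were alike.

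Other features of the libraries moved with genotype. On day 0 the 6 macrophage and monocyte markers summed to 63.0 FPKM in cKO and 197 in WT, with 5 of 6 lower by more than 1.5, and the 5 B-cell markers to 36.2 in cKO and 17.4 in WT. On day 3 the macrophage markers summed to 2.7 in cKO and 3.2 in WT, with 4 of 6 at 0 in cKO and 3 of 6 in WT. The B-cell markers then summed to 53.1 in cKO and 42.5 in WT. The 5 erythroid markers summed on day 3 to 11.9 in cKO and 20.2 in WT, with 2 of the 3 measured lower by more than 1.5, and on day 0 to 9.83 in cKO and 27.9 in WT, with 3 of the 4 measured lower by more than 1.5. The 4 CD8 and NK cell markers summed on day 3 to 9.79 in cKO and 16.2 in WT, and on day 0 to 14.2 in cKO and 15.4 in WT. The close sums on day 0 hide opposite differences. *Cd8b1* was higher in cKO (7.27 against 4.11 in WT), while *Ncr1* (4.06 against 6.28) and *Klrb1c* (2.45 against 4.62) were lower. *Cd8a* was below 1 FPKM in both genotypes on day 0.

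All 9 of the cell cycle genes measured on day 0 had a ratio of cKO to WT below 0, with a median of -0.49. Of these, *Ccnb1* (0.64 FPKM in cKO and 1.68 in WT) and *Aurkb* (0.70 in cKO) reached the minimum of 1 FPKM in WT alone. Their ratios could therefore only be below 0, and the median is not ranked against the -0.16 of the 50 ribosome genes. The other measured cell cycle genes were above 1 FPKM in both genotypes and also below 0, the joined row of *Pcna* and *Tmem230* only just. On day 3, 8 of 10 were below 0, with a median of -0.09. Their summed FPKM on day 3 was 1340 in cKO and 1400 in WT, and on day 0 it was 155 in cKO and 172 in WT, most of it from the joined row of *Pcna* and *Tmem230* at 111 in each genotype. The part of these cell cycle genes and cell type markers in the ratios of the ribosome genes was not tested, and in bulk RNA fewer cells of a type and less RNA per cell cannot be told apart.

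**Figure D2:**
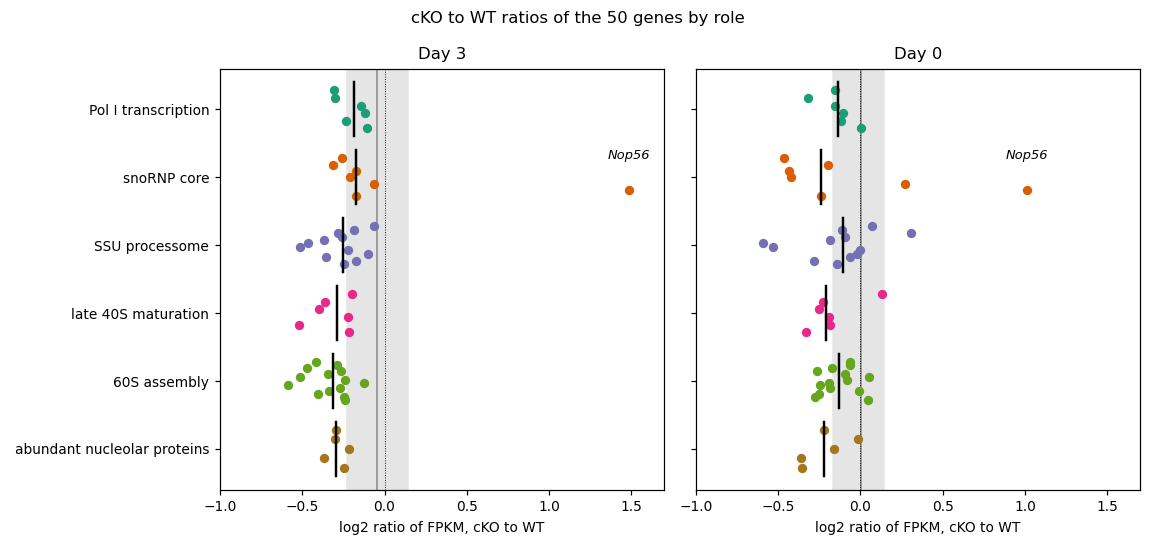
Log2 ratio of FPKM in cKO to WT for each of the 50 genes by role on day 3 (left) and day 0 (right). Black bars mark the median of each role, the grey line the median of all genes (-0.05 on day 3 and 0.00 on day 0), and the grey band their range from the 25th to the 75th percentile. On day 3 every point but *Nop56* lies left of 0, and on day 0 a few points of several roles lie right of it.

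The third comparison set the change over stimulation in cKO beside that in WT. The 2 sets of ratios use different libraries, and across the 50 genes they were closely alike (Pearson's r = 0.96, Spearman's rho = 0.97), again as a description. The ratio was smaller in cKO for 36 genes and larger for 14. Over the 11013 genes with both ratios, 54.3% were smaller in cKO. The median difference, cKO minus WT, was -0.11 on the log2 scale, against -0.03 over all genes, and the differences ran from -0.59 to 0.47.

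The largest negative differences were those of *Noc4l* (-0.59), *Mrto4* (-0.57), *Bop1* (-0.35), *Nop16* (-0.34) and *Rrp12* (-0.34). *Noc4l* and *Mrto4* shared a pattern, being slightly higher in cKO than in WT on day 0 and lower on day 3. The largest positive differences were those of *Nop56* (0.47), *Gar1* (0.26), *Nhp2* (0.21), *Dkc1* (0.20) and *Rcl1* (0.12). In *Gar1*, *Nhp2* and *Dkc1* the cKO level was further below WT on day 0 than on day 3, while *Nop10*, their partner, had a difference of -0.34. Of the 7 genes that hold small nucleolar RNAs 5 had a larger ratio in cKO, and of the 43 others 9. Over all genes, 54.3% had a smaller ratio in cKO. Apart from *Nop56*, the differences of the 7 were small, from -0.05 in *Ncl* to 0.20 in *Dkc1*. With 1 library per condition none of these differences was tested.

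**Figure D3:**
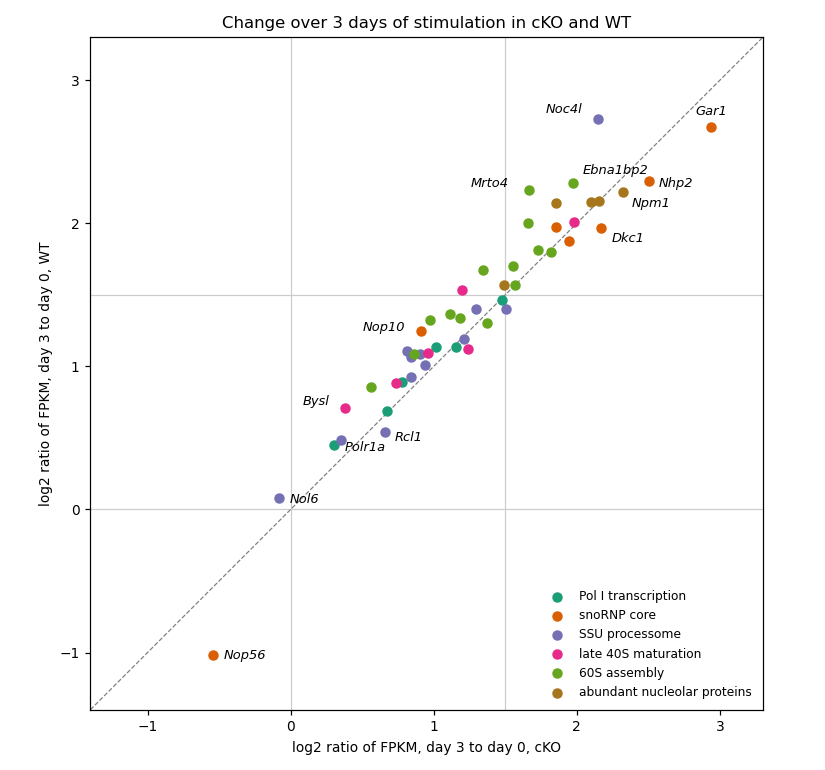
Log2 ratio of FPKM on day 3 to day 0 in cKO (horizontal) and WT (vertical) for the 50 genes, coloured by role. The dashed line marks equal ratios and the grey lines 0 and 1.5. Most points lie just above the dashed line, *Noc4l* and *Mrto4* furthest above, *Gar1*, *Nhp2* and *Dkc1* below it, and *Nop56* alone in the lower left.

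Related lists were given the same treatment. A further 97 ribosome biogenesis genes had medians of day 3 to day 0 of 0.91 in cKO and 1.16 in WT, with 18 risen in cKO and 23 in WT and none fallen. These shares, 18.6% in cKO and 23.7% in WT, were close to the 17.3% and 19.0% over all genes, although the medians were higher. Highest in WT were *Exosc8*, a subunit of the RNA exosome (log2 ratio 2.26 in cKO and 2.32 in WT), *Utp11l* (2.07 in cKO and 2.23 in WT) and *Rpf2*, which loads the 5S RNA (2.09 in cKO and 2.21 in WT). Lowest in WT were *Taf1c*, a subunit of the polymerase I selectivity factor (-0.74 in cKO and -0.49 in WT), the exonuclease gene *Xrn2* (0.29 in cKO and -0.09 in WT) and *Twistnb*, another polymerase I subunit (0.34 in cKO and 0.08 in WT).

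The 20 cytosolic aminoacyl-tRNA synthetases, which charge tRNAs for translation, had higher medians, 1.68 in cKO and 2.03 in WT, with 14 risen in cKO and 15 in WT. The 74 mitochondrial ribosomal protein genes had 1.42 in cKO and 1.56 in WT (31 risen in cKO and 44 in WT). The 10 subunits of RNA polymerase III had 0.45 in cKO and 0.65 in WT, with none risen. The cytosolic ribosomal protein genes, most of which encode the final parts that the machinery assembles, were chosen by symbol. Their list therefore includes relatives such as *Rpl7l1* and *Rps27l*. For the 81 measured genes of this list the medians were 0.68 in cKO and 0.55 in WT, with 5 risen in each genotype, or 6.17%. *Rpl7l1* and *Rps27l* were among the risen in both genotypes. The medians of the assembly factors were thus above those of this list in both genotypes.

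On day 3, ratios below 0 in cKO against WT were also common in these lists. They were seen in 82 of the 97 other ribosome biogenesis genes (median -0.17), 19 of the 20 synthetases (-0.33), 62 of the 74 mitochondrial ribosomal protein genes (-0.16), 9 of the 10 polymerase III subunits (-0.17) and 60 of the 81 cytosolic ribosomal protein genes (-0.06). On day 0 the lists were split. Ratios below 0 were found in 77 of the 81 cytosolic ribosomal protein genes (median -0.15), but in 58 of the 97 other biogenesis genes (-0.03), 8 of the 20 synthetases (0.02), 32 of the 74 mitochondrial ribosomal protein genes (0.05) and 5 of the 10 polymerase III subunits (0.02). Ratios below 0 on day 3 were thus not limited to the 50 genes.

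**Figure D4:**
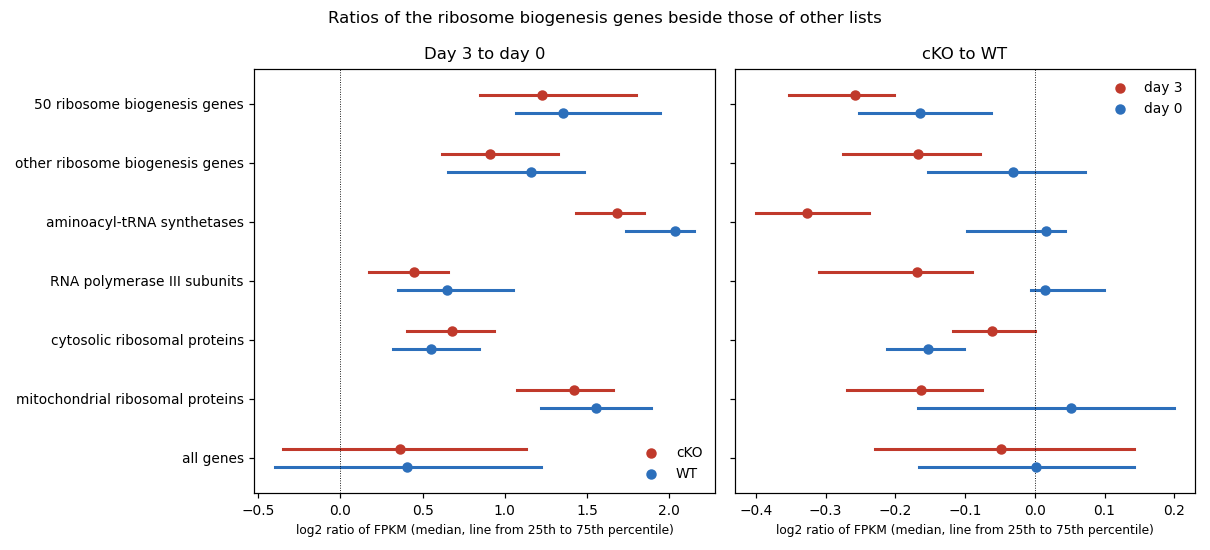
Medians (points) and ranges from the 25th to the 75th percentile (lines) of the log2 ratios of the 50 genes, of 5 related lists and of all genes. The left panel gives day 3 to day 0 in cKO (red) and WT (blue), where the 50 genes lie at 1.23 and 1.35, and the right panel cKO to WT on day 3 (red) and day 0 (blue), where they lie at -0.26 and -0.16.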

How the data were processed

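RNA of 4 libraries was analysed. Per the labels and the study's methods, TruSeq libraries were sequenced on an Illumina NextSeq instrument. The submitters' processing notes name CASAVA, TopHat2 2.0.10 and Cufflinks 2.1.1. The authors deposited FPKM values of Cufflinks for 31171 loci, in 1 table for cKO and 1 for WT, each normalized on its own. The build is stated as mm9, but the deposited loci overlap the RefSeq GRCm38 genes of all 50 members, and 20 end on the same base, so sequences of GRCm38.p6 were used. Coordinates are given 1-based. The 2 tables headed as cKO against WT hold weighted means of 2 libraries in each column and gave only a common scale. The authors' fold changes, p-values and q-values, and 16 tables of functional annotation, were not used.

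Log2 ratios were computed with a pseudocount of 0.1 for genes with at least 1 FPKM in either library, using Python 3.11.15 with pandas 2.3.3 and numpy 2.4.6, and checked on simulated data. Of loci with 1 name the most abundant was kept, and 25 names that a spreadsheet had turned into dates were restored. Values per library are given, by role, for the 3 highest and the lowest ratio of day 3 to day 0 in WT, for the 5 genes at either end of the cKO to WT ratio on each day, for the 5 largest differences between genotypes, for ratios of day 3 to day 0 below 0 and for genes on shared loci, and for a few more chosen after their values were seen. Members and lists were chosen with earlier results of these data known.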

Additional observations from a re-analysis of the deposited data

Results flagged for a closer look

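A total of 9 genes moved in opposite directions in 2 groups under the same contrast. The share of all genes with such opposite signs was not computed, so whether this count is high or low is not known. With 1 library per condition none of these differences was tested, and most involve a ratio close to 0. For *Nol6*, day 3 over day 0 gave -0.08 on the log2 scale in cKO and 0.08 in WT, a difference of -0.16. The other 8 genes were lower in cKO than in WT on day 3 and above WT on day 0, though only at 0.00 for *Ubtf* and *Utp15*. The ratio of cKO to WT on day 3 minus that on day 0 was -0.59 for *Noc4l*, -0.57 for *Mrto4*, -0.34 for *Nop10*, -0.33 for *Bysl*, -0.29 for *Wdr12*, -0.22 for *Utp15*, -0.13 for *Ddx10* and -0.11 for *Ubtf*. For *Noc4l*, FPKM on day 3 was 23.0 in cKO and 27.9 in WT, and on day 0 it was 5.12 in cKO and 4.12 in WT.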

How the results depend on the processing

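No paired analysis was possible because each condition has 1 library, and for the same reason no replicate could be left out. The medians of the 50 genes stayed within a factor of 1.5 of the values given under every alternative tried, namely a pseudocount of 1 or 0.01, an FPKM minimum of 5 or none, ratios centred on the median gene, both genotypes on 1 scale, genes on shared loci left out, loci without a gene name included, and *Nop56* left out (the last chosen after seeing the data). For the ratios of cKO to WT that margin is wider than the medians themselves, so staying within it says little there. Across the alternatives the cKO to WT medians lay between -0.29 and -0.21 on day 3, and between -0.18 and -0.16 on day 0. Centring on the median gene left 10 genes risen in cKO and 13 in WT between day 0 and day 3, against 12.0% and 12.5% of all genes. A threshold of 1 gave 31 in cKO and 39 in WT, with 1 fallen in WT, against 28.7% and 30.5% of all genes risen. The exception *Nop56* alone passed in cKO against WT under that threshold (1 gene higher on day 3 and 1 on day 0) and under centring (1 on day 3). Ratios of day 3 to day 0 below 0 were found in 4 genes in cKO and 2 in WT after centring, and in 1 in cKO and 0 in WT without *Nop56* or without shared loci. The count of genes lower in cKO on day 3 was 49 under every alternative that kept all 50 genes, and on day 0 it was between 40 and 43. The share of all genes that rose was 9.79% in cKO and 10.8% in WT without an FPKM minimum, and the share below 0 in cKO against WT on day 3 was then 37.8%. With unnamed loci included, 24.8% fell in cKO and 25.1% in WT between day 0 and day 3. Depth is not known, so no interval can be given for a gene.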
